A study of Homo sapiens with 6 samples.

Results

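The 9 genes described here encode enzymes that make serine and carry its hydroxymethyl carbon through the folate cycle: *PHGDH*, *PSAT1*, *PSPH*, *SHMT1*, *SHMT2*, *MTHFD1*, *MTHFD1L*, *MTHFD2* and *ALDH1L2*. The list was set by pathway membership, with earlier results of these data known, and each gene was matched to 1 Ensembl gene identifier among the 21475 genes used. Their RNA was measured in HaCaT cells, a spontaneously immortalized human keratinocyte line, as 3 wild-type (WT) and 3 *FGFR2* knockout (*FGFR2* KO) cell lines with 1 library each. The KO lines were made with CRISPR/Cas9 and an sgRNA against exon 7 of *FGFR2*, the receptor for FGF7 and FGF10 on keratinocytes. Both groups grew in high-glucose DMEM with fetal bovine serum, with no added growth factor or inflammatory mediator in the labels. The paper describes its HaCaT cells as low-passage, and the passage of the sequenced lines is not given in the sources used here. The KO lines were clonally expanded from single sorted cells, so that each stands for 1 clone. The WT lines of the study include the uncloned starting population beside expanded WT clones. For the HaCaT RNA sequencing data of this series, however, a legend of the paper gives 3 clonally expanded lines. Which line is which replicate is not given in the sources used here. Nothing in the labels names separate experiments, so the p-values measure the spread between these libraries.

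Serine is made from the glycolytic intermediate 3-phosphoglycerate by dehydrogenation (PHGDH), transamination (PSAT1) and dephosphorylation (PSPH). Serine hydroxymethyltransferase then splits serine into glycine and a one-carbon unit bound to tetrahydrofolate, in the cytosol (SHMT1) and in mitochondria (SHMT2). In mitochondria MTHFD2 oxidizes this unit and MTHFD1L releases it as formate, while ALDH1L2 can oxidize it to carbon dioxide with formation of NADPH. In the cytosol the trifunctional MTHFD1 joins formate to folate again and supplies purine, thymidylate and methionine synthesis. These pathways serve proliferating cells, and DMEM itself provides serine, glycine, methionine and folic acid.

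The deposited values are FPKM, fragments scaled to transcript length and library size, which can be compared between genes as levels per length. Depth, estimated from the steps between low values of genes with a single transcript, was 67500000 to 87600000 fragments per library. Wherever 3 values are given for a group, they follow the replicate numbers 1, 2 and 3. *FGFR2* itself was at 21.6, 39.7 and 15.0 FPKM in the WT lines and at 3.04, 2.26 and 4.31 FPKM in the KO lines, so that the targeted gene was lower in every library labelled KO (log2 fold change -2.73, limma with Benjamini-Hochberg, adjusted p = 0.261). All 9 keratinocyte markers examined were expressed, with *KRT5* reaching 14770 FPKM. Of 16 markers of other cell types, 10 stayed under 0.5 FPKM in every library, and none was at 0 in all 6. The markers summed, in WT and KO, to 7.74 to 17.6 and 6.88 to 12.3 FPKM for fibroblasts, 0.881 to 2.44 and 0.708 to 1.06 FPKM for melanocytes, 11.7 to 20.6 and 4.51 to 11.0 FPKM for immune cells, and 18.2 to 27.2 and 5.82 to 17.5 FPKM for endothelial cells. A single gene made up most of the highest sum of each list. These genes were *COL1A1* with up to 16.7, *PMEL* with 2.43, *CD68* with 20.45 and *VWF* with 27.1 FPKM. The part of these markers in the results was not tested. Genes were tested between KO and WT with limma on log2(FPKM + 0.5), over the 12241 genes whose mean reached 0.5 FPKM. A gene counts as called if its Benjamini-Hochberg adjusted p does not exceed 0.05 and its log2 fold change is 0.5 or more in size. By this rule limma called 0 of the tested genes (0%). A nominal difference is the same rule on the unadjusted p, and it was met by 12.5% of the tested genes, with 10.2% higher and 2.33% lower in *FGFR2* KO.

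In the WT lines *PHGDH* had the highest level of the 9 enzymes, with 127 ± 46.3 FPKM (SD, n = 3). *SHMT2* followed with 91.7 ± 30.7, *SHMT1* with 70.9 ± 8.81, *MTHFD1* with 53.0 ± 10.3 and *PSAT1* with 50.6 ± 42.9 FPKM. *PSPH* lay at 17.5 ± 4.0 FPKM, and the enzymes of mitochondrial formate production were lower still, with 8.53 ± 5.32 FPKM for *MTHFD1L* and 6.34 ± 1.89 FPKM for *MTHFD2*. *ALDH1L2* had 0.0170 ± 0.0078 FPKM, the equivalent of 0.836 to 1.84 fragments per kilobase in a WT library. In this order, 7 of the 8 neighbouring pairs of genes did not differ by more than their SDs, and the drop from *MTHFD2* to *ALDH1L2* was the exception. *PHGDH* was the highest and *ALDH1L2* the lowest of the 9 in all 6 libraries. In the KO lines the order was *PHGDH*, *SHMT2*, *MTHFD1*, *PSAT1*, *SHMT1*, *PSPH*, *MTHFD1L*, *MTHFD2* and *ALDH1L2*. *MTHFD1* had thus moved from below to above *SHMT1*, which in KO lay at 82.6 ± 10.4 FPKM against 97.8 ± 25.1 FPKM for *MTHFD1*, and 6 of the 8 neighbouring pairs in KO lay within their SDs.

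**Figure D1:**
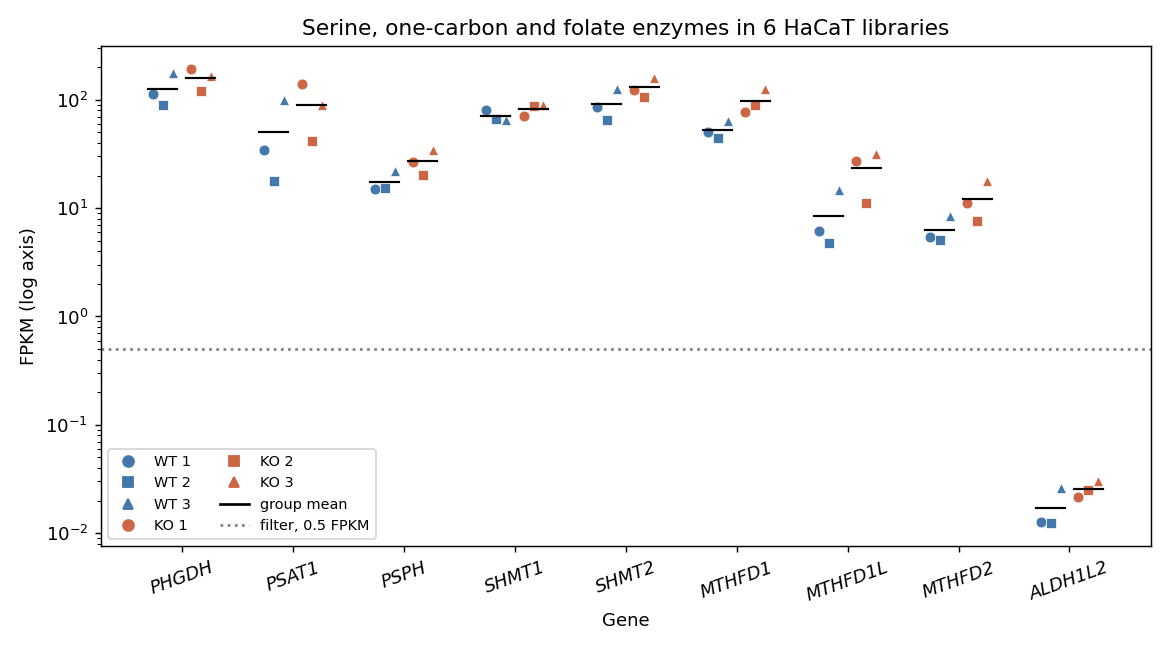
FPKM of the 9 enzymes on a log axis in 3 WT (blue) and 3 KO (orange) libraries, with a different marker for each replicate number, black lines for the group means and a dotted line at the filter of 0.5 FPKM. The KO mean is the higher one for each gene, but only for *MTHFD1* do all 3 KO values (77.4 to 126 FPKM) lie above all 3 WT values (44.2 to 64.3 FPKM).

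The KO mean was higher than the WT mean for all 8 enzymes that passed the filter, and for the ninth, *ALDH1L2*, as well. Of the tested genes as a whole, 60.6% had a higher KO mean. The median log2 fold change of the 8 enzymes was 0.73, beside 0.09 over all tested genes. *MTHFD1L*, *MTHFD1*, *MTHFD2* and *PSPH*, 4 of the 8, were nominally higher, as were 10.2% of all tested genes. After adjustment 0 of the 8 were called. In bulk RNA, a higher level in each cell and a larger share of cells with a high level cannot be told apart.

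Among the enzymes of serine synthesis, *PHGDH* (ENSG00000092621, chromosome 1 from 119648411 to 119744218 on the plus strand of GRCh38), which catalyses the first and committed step, had 112, 89.5 and 179 FPKM in the WT lines. In the KO lines it had 194, 121 and 165 FPKM. The groups overlapped, because WT replicate 3 lay above 2 of the 3 KO libraries. The log2 fold change was 0.37 (standard error 0.28) with a Benjamini-Hochberg adjusted p of 0.519 in limma, so that the difference did not exceed the spread between lines. It was 0.15 without WT replicate 2 and 0.64 without WT replicate 3.

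*PSAT1* (ENSG00000135069, chromosome 9 from 78297125 to 78330093, plus strand), the aminotransferase that takes nitrogen from glutamate, was the most variable of the 9 genes. It had 34.7, 18.0 and 99.2 FPKM in the WT lines and 139, 41.8 and 89.7 FPKM in KO. The highest WT line was 5.52 times the lowest, and the highest KO line 3.33 times the lowest, whereas the KO mean was 1.78 times the WT mean. WT replicate 3 therefore exceeded KO replicates 2 and 3. The log2 fold change was 1.01 with a standard error of 0.64 (limma with Benjamini-Hochberg, adjusted p = 0.438). It was 0.45 without WT replicate 2 and 1.67 without WT replicate 3. Of the 31-base words in *PSAT1* transcripts, 15.3% also occur in transcripts of 4 other genes, chiefly the pseudogene *PSAT1P3*, so that some fragments could be assigned to either.

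*PSPH* (ENSG00000146733, chromosome 7 from 56011051 to 56051604, minus strand), which removes the phosphate in the last step, showed less spread. It had 15.0, 15.3 and 22.1 FPKM in WT and 26.4, 20.4 and 34.7 FPKM in KO. Only KO replicate 2 lay within the WT range. The log2 fold change was 0.61 (standard error 0.24), with limma p-values of 0.0332 before and 0.274 after Benjamini-Hochberg adjustment. Of its 31-base words, 17.2% are shared with other genes, including the pseudogene *PSPHP1*.

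The enzymes that split serine differed between the compartments in their variation. Cytosolic *SHMT1* (ENSG00000176974, chromosome 17 from 18327860 to 18363563, minus strand) had 81.0, 66.4 and 65.1 FPKM in WT and 70.7, 87.2 and 89.9 FPKM in KO, the narrowest range of the 9 genes. WT replicate 1 was above KO replicate 1. The log2 fold change was 0.22 (standard error 0.16, limma with Benjamini-Hochberg, adjusted p = 0.486). The tested genes of chromosome 17 had a median log2 difference from the WT mean of 0.06, 0.13 and -0.18 in WT and of 0.08, 0.20 and 0.24 in KO, beside 0.10, 0.05 and 0.15 in KO over all tested genes. After removal of such medians *SHMT1* had a log2 fold change of 0.05, and with library weights estimated from these data of -0.04.

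Mitochondrial *SHMT2* (ENSG00000182199, chromosome 12 from 57229573 to 57234935, plus strand) had 85.4, 64.6 and 125 FPKM in WT and 124, 107 and 160 FPKM in KO. WT replicate 3 lay above KO replicates 1 and 2, and the other WT libraries lay below every KO library. The log2 fold change was 0.54 (standard error 0.26, limma with Benjamini-Hochberg, adjusted p = 0.334), and it was 0.31 without WT replicate 2. None of its 31-base words (0%) occurs in a transcript of another gene on the same strand, and 5.72% are complementary to transcripts of other genes. The log2 ratio of *SHMT2* to *SHMT1* within a library, which does not depend on the scaling of that library, was 0.08, -0.04 and 0.94 in WT and 0.81, 0.30 and 0.83 in KO. The ratio thus overlapped between the groups.

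*MTHFD1* (ENSG00000100714, chromosome 14 from 64388031 to 64463457, plus strand), the cytosolic enzyme with synthetase, cyclohydrolase and dehydrogenase activities, was the one member with separate groups. It had 50.6, 44.2 and 64.3 FPKM in the WT lines and 77.4, 90.2 and 126 FPKM in KO. The lowest KO value was above the highest WT value, and the exact permutation test gave p = 0.1 (two-sided), which 3 against 3 libraries cannot go below. Groups were separated in 1 of the 8 tested enzymes, with KO above WT, and in 24.1% of all tested genes, of which KO above WT made up 18.3% of all tested genes. The KO mean was 1.84 times the WT mean, and the log2 fold change was 0.86 (standard error 0.22), with limma p-values of 0.00484 before and 0.261 after Benjamini-Hochberg adjustment. With each library left out in turn it stayed between 0.67 and 1.02. Of the 31-base words of *MTHFD1* transcripts, 9.79% also occur in transcripts of other genes, including the pseudogene *MTHFD1P1*, and 14.5% are complementary to such transcripts.

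*MTHFD1L* (ENSG00000120254, chromosome 6 from 150865679 to 151101887, plus strand), the mitochondrial synthetase that releases formate from 10-formyl-tetrahydrofolate, had the largest fold change of the tested members. It had 6.14, 4.82 and 14.6 FPKM in WT and 27.5, 11.1 and 31.9 FPKM in KO. KO replicates 1 and 3 lay above all WT libraries, and KO replicate 2 lay below WT replicate 3. The KO mean was 2.76 times the WT mean. The log2 fold change was 1.43 (standard error 0.49), with limma p-values of 0.0208 before and 0.261 after Benjamini-Hochberg adjustment. It ranged from 1.13, when WT replicate 2 was left out, to 1.89, when KO replicate 2 was.

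*MTHFD2* (ENSG00000065911, chromosome 2 from 74186172 to 74217565, plus strand), the mitochondrial dehydrogenase and cyclohydrolase that acts between SHMT2 and MTHFD1L, had 5.38, 5.13 and 8.51 FPKM in WT and 11.1, 7.61 and 17.9 FPKM in KO. Again KO replicate 2 alone lay within the WT range. The KO mean was 1.92 times the WT mean, with a log2 fold change of 0.84 (standard error 0.32), with limma p-values of 0.0328 before and 0.274 after Benjamini-Hochberg adjustment. Without KO replicate 3 it was 0.54. Sequence complementary to transcripts of other genes such as *SLC4A5* makes up 22.7% of the 31-base words of *MTHFD2* transcripts. The libraries keep the strand, but whether the quantification used it is not given in the sources used here.

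*ALDH1L2* (ENSG00000136010, chromosome 12 from 105019784 to 105107643, minus strand) had 0.0127, 0.0124 and 0.0260 FPKM in WT and 0.0218, 0.0252 and 0.0305 FPKM in KO. It was not tested, since its mean was below 0.5 FPKM. At 0.836 to 2.63 fragments per kilobase in the 6 libraries, a difference between the groups was not detectable at this depth. Its cytosolic paralog *ALDH1L1* was also low, at 1.34 FPKM in WT replicate 2 and at most 0.110 FPKM in the other libraries.

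**Figure D2:**
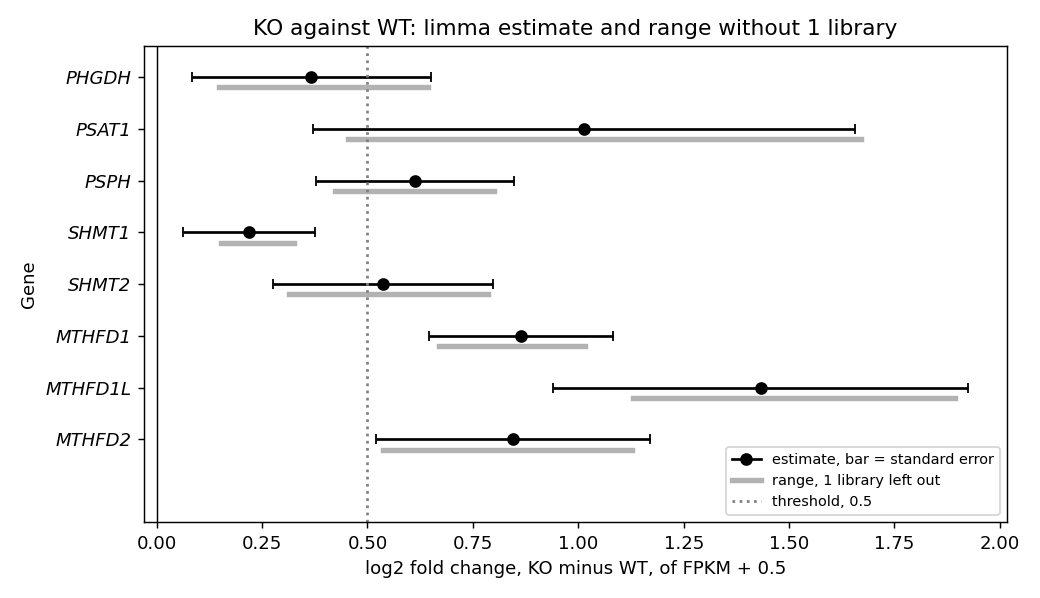
Log2 fold changes of FPKM + 0.5, KO minus WT, for the 8 tested enzymes from limma (points, with bars for the standard error), grey lines for the range when each library is left out in turn, and a dotted line at the threshold of 0.5. All 8 estimates lie above 0, from 0.22 for *SHMT1* to 1.43 for *MTHFD1L*, and the range of *PSAT1* is the widest, from 0.45 to 1.67.

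*MTHFD1* and *MTHFD1L*, the tested members with the smallest p-values, encode paralogous synthetases of the cytosol and of mitochondria, and their promoters were searched for motifs of factors known to act on genes of this pathway. RefSeq promoter windows (GRCh38.p14, 250 bases before to 50 bases after a transcription start) were found for 6 of the 9 genes, 9 windows in all. The letters searched on both strands were TGATGCAAT, the C/EBP-ATF response element bound by ATF4, with its shorter core TGATGNAA, which is part of it, the cAMP response element TGACGTCA, and CACGTG, the E-box bound by MYC and USF factors, which reads the same on both strands. The 250 bases before the start are printed for both genes, 5′ to 3′ on the plus strand, because these are the member promoters that hold a searched motif, with the motifs in capitals.
*MTHFD1L*, chr6:150866236-150866485: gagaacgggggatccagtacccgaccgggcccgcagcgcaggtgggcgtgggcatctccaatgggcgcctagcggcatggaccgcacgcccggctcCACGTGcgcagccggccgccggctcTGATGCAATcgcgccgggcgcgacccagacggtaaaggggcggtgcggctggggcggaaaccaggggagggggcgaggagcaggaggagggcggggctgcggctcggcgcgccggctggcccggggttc
*MTHFD1*, chr14:64388103-64388352: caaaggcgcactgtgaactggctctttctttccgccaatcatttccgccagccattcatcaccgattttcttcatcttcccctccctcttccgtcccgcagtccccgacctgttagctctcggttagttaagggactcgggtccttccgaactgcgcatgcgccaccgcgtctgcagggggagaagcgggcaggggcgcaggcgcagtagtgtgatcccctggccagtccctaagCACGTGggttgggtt
The E-box of *MTHFD1* begins 15 bases before the start, at 64388338 to 64388343 of chromosome 14. In the *MTHFD1L* window shown, the E-box begins 154 and the C/EBP-ATF element 129 bases before the start, at 150866332 to 150866337 and 150866357 to 150866365 of chromosome 6. The same letters lie in 2 further, overlapping *MTHFD1L* windows with other starts. Of all 35116 windows in the table, 7.26% hold the E-box, 0.236% the full C/EBP-ATF element, 3.62% its core and 1.85% the cAMP response element. The windows of *PHGDH*, *PSAT1*, *SHMT1* and *MTHFD2* hold none of these letters. A match is a description of the letters and no evidence that a factor binds.

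The members also shared an order of the libraries. WT replicate 3 was the highest WT library for 7 of the 8 tested enzymes (39.7% of all tested genes), with *SHMT1* as the exception. KO replicate 2 was the lowest KO library for 6 of 8 (41.3% of all tested genes), with *SHMT1* and *MTHFD1* as the exceptions. For *PHGDH*, *PSAT1*, *PSPH*, *SHMT2*, *MTHFD1L* and *MTHFD2*, 6 of 8, the WT line with replicate number 3 lay above the KO line with replicate number 2, which was so in 44.2% of all tested genes. WT replicates 1 and 2 both lay below every KO library for 7 of 8 enzymes (28.4% of all tested genes). The mean of the 8 genes, as log2(FPKM + 0.5) centred on the mean of the 6 libraries, was -0.48, -0.79 and 0.16 in WT and 0.47, -0.06 and 0.70 in KO. The count of 7 of 8 is by definition also the number with all KO above all WT libraries when WT replicate 3 is left out. Without KO replicate 2, all KO libraries were above all WT libraries for 4 of 8 enzymes (31.4% of all tested genes).

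**Figure D3:**
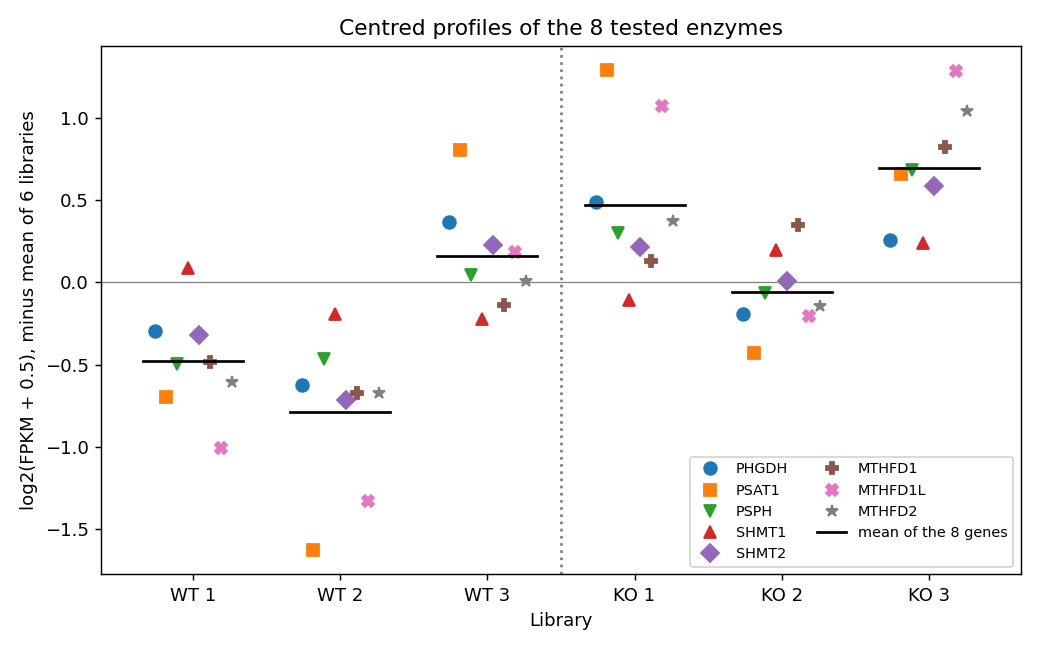
log2(FPKM + 0.5) of the 8 tested enzymes in each library after subtraction of the gene's mean over the 6 libraries, with 1 marker per gene, a black line for the mean of the 8 genes and a dotted line between WT and KO libraries. The mean of WT replicate 3 (0.16) lies above that of KO replicate 2 (-0.06), and *PSAT1* has the largest spread while *SHMT1* stays near 0.

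Among the other tested genes, the 5 whose centred profile lay nearest to this mean profile were *SORD*, *HSPH1*, *SLC7A5*, *MEX3D* and *HSPA5*, with root mean square distances of 0.07 to 0.09 on the log2 scale over the 6 libraries. The distances of the 8 members to their own mean were 0.14 for *SHMT2* to 0.58 for *PSAT1*. The 5 genes were chosen for the smallest distance, so their short distances and a shared order of the libraries are no separate result. *SLC7A5*, a subunit of the large neutral amino acid transporter, had 402, 308 and 591 FPKM in WT and 754, 471 and 770 FPKM in KO. *HSPA5*, the chaperone BiP of the endoplasmic reticulum, had 112, 92.5 and 165 FPKM in WT and 192, 141 and 216 FPKM in KO. Asparagine synthetase *ASNS*, an ATF4 target listed with the regulators, had 6.86, 2.92 and 31.1 FPKM in WT and 35.0, 6.34 and 12.1 FPKM in KO, a wide spread in both groups like that of *PSAT1*.

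The balance between the mitochondrial and the cytosolic step was described within each library. The log2 ratio of *MTHFD1L* to *MTHFD1* was -3.04, -3.20 and -2.14 in WT and -1.50, -3.02 and -1.98 in KO. The ratio of KO replicate 2 lay between those of WT replicates 1 and 3. The ratio of *MTHFD2* to *MTHFD1* was -3.09 ± 0.16 in WT and -3.06 ± 0.44 in KO (SD of the log2 ratio, n = 3), and that of *PHGDH* to *PSPH* was 2.82 ± 0.25 in WT and 2.56 ± 0.31 in KO, so that all these ratios overlapped.

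The wider pathway was described with 48 further genes of folate uptake, folate interconversion, folate use, serine and glycine use, the methionine cycle and transsulfuration, of which 37 passed the filter. Of these 37 genes, 29 had a higher and 8 a lower KO mean, and 60.6% of all tested genes had a higher one. The median log2 fold change of the 37 was 0.35 beside 0.09 over all tested genes. None (0 of 37) was called after adjustment. Nominally, 12 were higher and 1 was lower (10.2% and 2.33% of all tested genes). Without overlap of the groups, 14 were above and 2 below (18.3% and 5.77% of all tested genes).

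All 3 folate-dependent enzymes of nucleotide synthesis had separate groups, with KO above WT (18.3% of all tested genes). *GART*, which uses 10-formyl-tetrahydrofolate in purine synthesis, had 39.9, 30.7 and 62.3 FPKM in WT and 86.6, 82.1 and 148 FPKM in KO. Its log2 fold change was 1.25 (standard error 0.31), and 0.85 with the medians of each chromosome removed. *ATIC*, which adds the second formyl group, had 41.4, 46.5 and 55.9 FPKM in WT and 99.3, 74.1 and 154 FPKM in KO. Its log2 fold change was 1.12 (standard error 0.27), and 1.01 with these medians removed. *TYMS*, which makes thymidylate, had 33.6, 25.7 and 39.5 FPKM in WT and 40.1, 51.9 and 90.7 FPKM in KO. The lowest KO value of *TYMS* was close to its highest WT value.

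In folate uptake, the reduced folate carrier *SLC19A1* had 1.29, 1.01 and 2.40 FPKM in WT and 5.17, 4.68 and 16.6 FPKM in KO. With a log2 fold change of 2.0 (standard error 0.48, limma with Benjamini-Hochberg, adjusted p = 0.261) it had the largest difference of the wider list, and KO replicate 3 stood far above the other KO lines. With chromosome medians removed, the log2 fold change of *SLC19A1*, on chromosome 21 like *GART*, was 1.60. The proton-coupled folate transporter *SLC46A1* had 9.97 to 15.1 FPKM in WT and 18.4 to 25.7 FPKM in KO. Its log2 fold change was 0.75, and 0.58 with these medians removed. *GGH*, which trims folate polyglutamates, had 9.61 to 14.3 FPKM in WT and 14.2 to 19.2 FPKM in KO, with KO replicate 2 within the WT range. Its log2 fold change was 0.50, and 0.30 with chromosome medians removed. The folate receptor gene *FOLR1* had 0.581, 1.37 and 4.05 FPKM in WT and 0.504, 1.19 and 0.277 FPKM in KO. Its groups overlapped, with a log2 fold change of -0.93. *FPGS* and *ABCC1* of the same list overlapped as well, with log2 fold changes of 0.31 and 0.12.

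At the mitochondrial membrane, the serine carrier *SFXN1* had 21.1 to 23.1 FPKM in WT and 37.8, 27.8 and 60.6 FPKM in KO, and its relative *SFXN2* had 4.55 to 6.04 FPKM in WT and 6.08 to 16.5 FPKM in KO. The folate carrier *SLC25A32* had 4.19 to 5.62 FPKM in WT and 5.96 to 10.4 FPKM in KO. Its log2 fold change was 0.61, and 0.40 with chromosome medians removed. These 3 carriers had separate groups, with KO above WT (18.3% of all tested genes), *SFXN2* by a narrow margin. *SFXN3* did not, with 40.8 to 57.3 FPKM in WT and 34.8 to 42.5 FPKM in KO. *MTHFD2L*, the paralog of *MTHFD2*, was low at 1.38 to 1.93 FPKM in WT and 2.06 to 2.32 FPKM in KO.

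Of the methionine cycle, *MAT2A*, which makes S-adenosylmethionine, had 74.3 to 94.0 FPKM in WT and 105 to 174 FPKM in KO. *AHCY*, which hydrolyses S-adenosylhomocysteine, had 126 to 156 FPKM in WT and 166 to 298 FPKM in KO. Methionine synthase *MTR* and its reductase *MTRR* were separated between the groups as well, with log2 fold changes of 0.43 and 0.40, while *AHCYL2* lay lower in all KO libraries, with a log2 fold change of -0.41. *MAT2B* and *AHCYL1* overlapped, with log2 fold changes of -0.008 and 0.05. *NNMT*, a methyl consumer below the filter, had 0.0672 to 0.140 FPKM in WT and 0.207 to 0.271 FPKM in KO and was not tested.

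For glycine and homocysteine, *GCSH*, the lipoyl carrier protein of the glycine cleavage system, had 10.9 to 12.7 FPKM in WT and 14.1 to 35.0 FPKM in KO. *GLDC*, the decarboxylase of the same system, was at most 0.0705 FPKM in any library and was not tested. The 9 tested genes of serine and glycine use had a median log2 fold change of 0.10, beside 0.09 over all tested genes. *CBS*, the first enzyme of transsulfuration, had 1.44, 1.31 and 5.37 FPKM in WT and 8.80, 3.83 and 5.29 FPKM in KO, again with WT replicate 3 above KO replicate 2. *CBS* lies on chromosome 21, as *SLC19A1* and *GART* do. Its log2 fold change was 1.17, and 0.76 with chromosome medians removed.

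Of 7 genes listed as regulators or ATF4 targets, *MYC* was at 18.6, 29.2 and 25.2 FPKM in WT and 44.1, 29.3 and 57.7 FPKM in KO, a log2 fold change of 0.80 (standard error 0.27, limma with Benjamini-Hochberg, adjusted p = 0.261). KO replicate 2 barely exceeded WT replicate 2. With chromosome medians removed, the log2 fold change of *MYC* was 0.60. *ATF4* overlapped between the groups, with 152, 153 and 209 FPKM in WT and 229, 163 and 185 FPKM in KO. *ATF5* had 17.7 to 18.8 FPKM in WT and 19.4 to 23.9 FPKM in KO, whereas *CEBPB*, *DDIT3* and *NFE2L2* overlapped.

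Other measures differed between the libraries along with these genes. The summed FPKM of 12 proliferation markers was 1104 to 1600 in WT and 1836 to 2602 in KO libraries. Within that list all 9 replication genes, such as *PCNA* and *MCM2* to *MCM7*, were higher in all KO than in all WT libraries (18.3% of all tested genes), while *MKI67*, *TOP2A* and *CCNB1* overlapped. The mean of *MKI67* was 121 FPKM in WT and 93.0 FPKM in KO. From its own RNA sequencing analysis with DESeq2, the paper reported differential genes between KO and WT. Pathways enriched among them included DNA replication, the cell cycle, and the metabolism of purines and pyrimidines. In serum-containing medium, however, the paper found no difference between WT and KO cells in proliferation, by Ki67 staining, or in viability. Genes of the mitochondrial chromosome took 27.6%, 21.5% and 22.2% of the FPKM in WT and 15.8%, 23.7% and 11.9% in KO. With the libraries scaled to the sum of the nuclear genes, the log2 fold changes of the 8 enzymes were 0.14 to 1.36, and with median-of-ratios scaling they were 0.11 to 1.32, each above 0. The part of proliferation and of clone differences in the levels of the enzymes was not tested.

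The number of nominally higher enzymes turned on single libraries. It was 7 of 8 without WT replicate 3, where 12.3% of all tested genes were nominally higher. It was 1 of 8 without WT replicate 1, WT replicate 2, KO replicate 1 or KO replicate 3, where 6.27%, 8%, 10% and 4.4% of all tested genes were. Library weights were also estimated from how closely each library fitted its group in these same data, without a separate measure of quality. With these weights, limma called 4 of the 8 enzymes after adjustment, *MTHFD1*, *MTHFD1L*, *MTHFD2* and *PSPH*, with adjusted p-values of 0.0333 to 0.0384 (Benjamini-Hochberg) beside 11.4% of all tested genes called and 9.48% called as higher in KO. In that fit WT replicate 1 held 89.7% of the weight of its group.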

How the data were processed

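RNA of 3 WT and 3 *FGFR2* KO HaCaT libraries, prepared as stranded poly(A) libraries, was compared. The authors trimmed reads with fastp 0.20.0, quantified them with kallisto 0.46.1 on GRCh38.p13 with GENCODE release 37, and deposited FPKM per gene. How FPKM was computed is not given in the sources used here. Each table holds 21493 genes. 18 Y copies of pseudoautosomal genes were left out, and 21400 of 21475 genes were given symbols and GRCh38 positions from GENCODE release 44. Depth was estimated from low values of genes with 1 transcript of at least 1000 bases, of which 73.0% to 76.6% per library came out whole within 0.05, too few to recover reads, and no count model was run. Genes whose mean reached 0.5 FPKM were tested with limma 3.58.1 in R 4.3.3 (mean-variance trend, Benjamini-Hochberg adjustment) on log2(FPKM + 0.5), which understates fold changes of low genes, with thresholds of 0.05 and 0.5. The fit was tested on simulated data. Named are all members, *FGFR2*, genes of the wider list and regulators that were called, differed nominally or had groups that do not overlap, and the 5 genes with the nearest profile. *ALDH1L1*, *ASNS*, *ATF4*, *CEBPB*, *DDIT3*, *NFE2L2*, *SFXN3*, *GLDC*, *FOLR1*, *FPGS*, *ABCC1*, *MAT2B*, *AHCYL1* and the markers were added to show more of their lists. Other genes of the wider list are not named one by one and stay in its counts and median. For 3 tested genes of the wider list, single values are not reported here, and the genes stay in its counts and median. The alternatives tried were other pseudocounts, filters, scalings and variance models, library weights, a replicate block and leaving out each library. The members and lists were chosen with earlier results of these data known.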

Additional observations from a re-analysis of the deposited data

How the results depend on the processing

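The direction of all 8 tested enzymes held under 18 alternatives (pseudocounts of 0.1 and 1, the filter dropped or raised to 2 FPKM, TPM, median-of-ratios and quantile scaling, no trend, library weights, the replicate block, each library left out, and, added after the data were seen, chromosome medians removed and nuclear-sum scaling), except that *SHMT1* was -0.039 with library weights. The filters, the fit without trend and the replicate block leave the fold change of a gene as it is, so that they could not change a direction. With library weights the calls over all genes went from 0 to 1396, those of the enzymes from 0 to 4 and those of the wider list from 0 to 9, the enzymes at an unadjusted p from 4 to 7, and *FGFR2* (log2 fold change -2.66, adjusted p = 0.0191 by limma) was called; the cause was not tested. With 1 library left out, the enzymes at an unadjusted p went from 1 to 7 (4.4% to 14.3% of all tested genes nominally higher), those with separate groups from 1 to 7 (19.7% to 31.4% of all tested genes), and the wider list at an unadjusted p from 7 to 15. The split of genes at an unadjusted p was 1251 higher and 285 lower in the main comparison and 784 and 521 with median-of-ratios scaling, which moved the median log2 fold change of all genes from 0.09 to -0.02. The replicate numbers did not pair the libraries (correlations of deviations of -0.21, 0.23 and 0.05 for numbers 1, 2 and 3), and the replicate block called 0 genes, with an adjusted p of 0.0972 (limma) for *MTHFD1* and *MTHFD1L*. Depth limits *ALDH1L2*.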
